A study of Rattus norvegicus with 18 samples.

Results

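Cortical type-I astrocytes of the rat that had spent 1 day on immobilized beta-amyloid peptide were compared with astrocytes that had spent 12 hours on it. The peptide was the fragment from residue 25 to residue 35. Both groups were exposed, so the comparison asks how the earliest response had decayed or been replaced by 1 day. The members are the 3 arrays at 1 day and the 3 arrays at 12 hours, 6 of 18 arrays in all, chosen by their titles. Of the 1322 probe sets in the deposited table, the 59 control probe sets of the array maker were left out, and 1027 of the other 1263 were bright enough to test. They include 926 that carry 1 gene symbol and stand for 621 genes. Astrocytes on laminin and nitrocellulose that saw no peptide gave the 6 control arrays, for which no culture time is labelled. The remaining arrays, 3 at 3 days and 3 at 5 days on the same peptide, entered the fit to estimate the spread. Every culture was of glial cells on a coated surface, the peptide was a short fragment and not the whole beta-amyloid peptide, and the labels do not say whether arrays of a group came from separate cultures. The p-values are therefore set against a spread between samples that may be only technical.

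Astrocytes are the glial cells that clear glutamate from synapses, turn it into glutamine and feed neurons. Reactive astrocytes, as found around amyloid plaques, release chemokines that attract immune cells, make complement proteins and prostaglandins, and switch transcription factors such as the Egr, Jun and C/EBP families. An early inflammatory response is usually limited by inhibitors that are made later, among them the interleukin-1 receptor antagonist.

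The arrays of 1 time were not alike, and this touches every result. Across the 1027 probe sets the 3 arrays at 12 hours correlated with each other at Pearson's r of 0.975 to 0.979 on log2 signal. Arrays 1 and 2 at 1 day correlated with each other at 0.958, but with array 3 at 1 day at only 0.838 to 0.844. Array 3 at 1 day was closer to the 12 hours arrays (0.924 to 0.93) than arrays 1 and 2 were (0.877 to 0.888). Control array 1 was closer still to the 12 hours arrays, at 0.966 to 0.97, and control array 2 reached 0.916 to 0.922, against 0.802 to 0.832 for the other 4 controls. Array 3 at 3 days reached 0.906 to 0.91, against 0.824 to 0.84 for arrays 1 and 2 at 3 days. The labels of control arrays 1 and 2 name cerebral cortex as the source, where those of all other arrays name type-I astrocytes. The median SD of log2 signal within a group was 0.384 at 1 day, 0.146 at 12 hours and 0.522 among the controls. Results are given below with array 3 at 1 day shown beside the other arrays.

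None of the 10 measured astrocyte markers lay at the floor on all 6 arrays, and markers of other cell types gave signal as well. The summed signal of the astrocyte markers, among them vimentin and connexin 43, was 43341, 44735 and 35659 on the 1 day arrays. It was 42706 to 44251 at 12 hours and 29416 to 43512 in the controls. Single markers did not follow this sum. Vimentin and connexin 43 were higher on array 3 at 1 day than on arrays 1 and 2. Slc1a3 gave 302 on array 3, against 3289 and 3316, Mt3 91.9, against 2911 and 3030, and S100b 21.6, against 529 and 588. The summed signal of 6 markers of the oligodendrocyte lineage was 1278.9, 1169.9 and 1971.1 at 1 day, against 1628 to 1821.6 at 12 hours, and of these only Sox10 lay at the floor of 11.3 on all 6 arrays. The sum of 4 markers of fibroblasts, meninges and vessels was 9852.7, 10427.6 and 25574.7 at 1 day, against 11408.7 to 12613.9 at 12 hours. In the controls it was 12026.2 to 27218.5. The sum on array 3 was thus far above those of the other arrays of both times. Most of it came from Igfbp2, with 6081, 6462 and 16528 at 1 day, and Igf2, with 623, 645 and 7281. The rest of the sum, from Slc2a1 and Pdgfrb, was lower on array 3 than on arrays 1 and 2. The part of oligodendrocyte, fibroblast, meningeal and vessel cells in the results was not tested. The microglial gene Itgam gave 41.3, 60.1 and 64.6 at 1 day, against 32.1 to 40.1 at 12 hours. The summed signal of 9 neuronal markers was 1535, 1452.5 and 1303.5 at 1 day, against 639.7 to 720.3 at 12 hours and 685.6 to 1742 in the controls. In RNA from a whole culture, fewer cells of a type and less RNA per cell cannot be told apart.

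At 1 day the chemokine Ccl5 was far below its 12 hours signal on all 3 arrays, and the genes Penk, Nefl and Il1rn were above theirs on all 3 arrays. The log2 folds of 1 day minus 12 hours were -6.24, 3.67, 2.97 and 2.54, but no probe set passed the test. With limma and Benjamini-Hochberg adjustment over all 1027 probe sets, 0 were called at 0.05 (0%), and the smallest adjusted p was 0.0709. At an unadjusted p under 0.05 there were 150 (14.6%), of which 89 were higher (8.67%) and 61 lower (5.94%) at 1 day. Arrays of the groups did not overlap for 342 probe sets (33.3%), 203 of them higher (19.8%) and 139 lower (13.5%) at 1 day. The median log2 fold over all probe sets was 0.10. The 15 probe sets with an adjusted p under 0.1 were split into 7 higher and 8 lower. The count of 0 depended on which arrays entered the fit and on how they were grouped. With only the 6 arrays of these times in the fit, 7 probe sets were called, 3 higher and 4 lower. Without control array 1 there were 14, with array 3 at 1 day left out there were 24, and with the 2 clusters that the arrays form by correlation as a block there were 15. The first cluster held all 12 hours arrays, array 3 at 1 day, array 3 at 3 days and control arrays 1 and 2. Of the 1 day arrays, only array 3 thus shared a cluster with the 12 hours arrays, so this block is largely confounded with the comparison. The genes described next are those with the smallest p in each direction, 6 each, and their values are given although none was called.

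**Figure D1:**
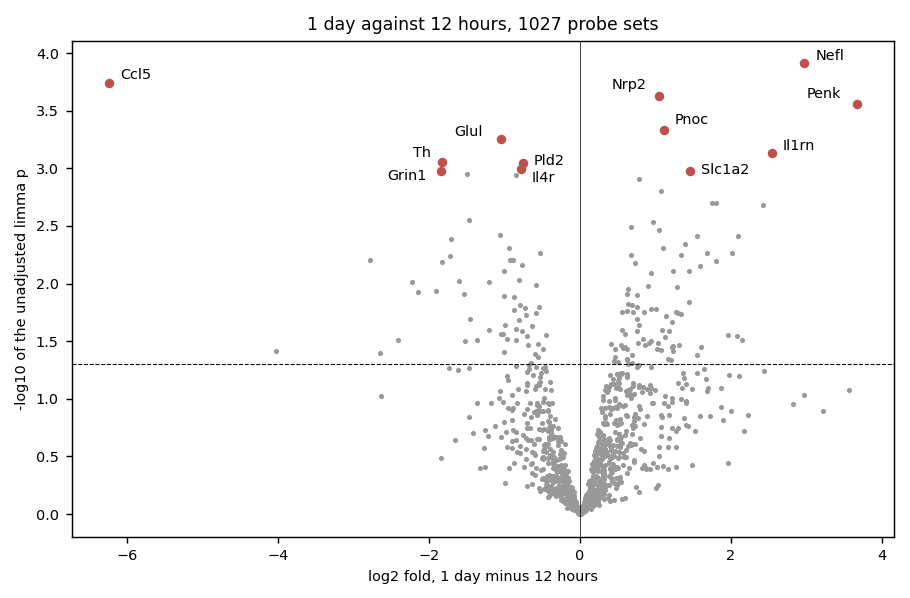
Each point is 1 of 1027 probe sets. The x axis gives the log2 fold, 1 day minus 12 hours, and the y axis minus log10 of the unadjusted limma p. The dashed line marks the level of 0.05, and the 6 genes with the smallest p in each direction are labelled. Ccl5 at -6.24 lies apart on the left, and Penk at 3.67 is the farthest right of the labelled genes.

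Ccl5, also called RANTES, draws T cells and monocytes to inflamed tissue as a chemokine, and it had the most negative fold of all probe sets tested. Its signal was 17.2, 15 and 21.0 on the 1 day arrays, against 1480.0, 1250.5 and 1252.7 at 12 hours. The groups lay far apart, and all 3 arrays at 1 day were low, array 3 included. The log2 fold was -6.24 (95% interval -8.95 to -3.52, adjusted p = 0.0709). Controls 2 to 6 gave 11.4 to 24.2, in the range of the 1 day arrays, but control array 1 gave 1496. That 1 control array widened the shared spread: without it the same fold had an adjusted p of 2.79e-10, and with only the 6 arrays of these times in the fit it was 8.48e-05. With the 2 correlation clusters as a block the log2 fold was -4.87 (adjusted p = 0.0668), and over all alternatives tried the adjusted p ran from 4.52e-11 to 0.371, the last with array 3 at 1 day compared alone. The low level went on later, with signals of 13.0, 13.0 and 15 at 3 days and 11.7, 13.4 and 13.0 at 5 days.

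Il1rn, the secreted antagonist that blocks the interleukin-1 receptor, differed in the other direction. It gave 58.2, 90.7 and 191.7 at 1 day, against 17.7, 15.3 and 18.9 at 12 hours. The groups did not overlap, and array 3 was the highest of the 1 day arrays. The log2 fold was 2.54 (SE 0.61, adjusted p = 0.0846). Controls had a median of 26.4, with 1 array at 118.3. At 3 days it gave 19.7, 18.9 and 52.7, and at 5 days 9.1, 19.1 and 18.4.

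Il4r encodes the receptor chain for interleukin 4, and it was lower at 1 day. It gave 402, 358 and 479 at 1 day, against 636, 757 and 726 at 12 hours, with no overlap and a log2 fold of -0.78 (SE 0.19, adjusted p = 0.0846). The controls had a median of 451 and reached 601.7 on control array 1.

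Among the neuronal and peptide genes, Penk stood out. It encodes proenkephalin, the precursor of the enkephalin opioid peptides, which cultured astrocytes are known to make. One probe set gave 5439, 5567 and 699.6 at 1 day, against 206, 237 and 209 at 12 hours. The controls had a median of 1091, with 232 on control array 1 and 578 to 1595 on the others. Array 3 at 1 day was thus under the control median. All 3 arrays at 1 day were higher than those at 12 hours, though array 3 was well under arrays 1 and 2. The log2 fold was 3.67 (SE 0.79, adjusted p = 0.0709). A second Penk probe set did not show this, with 94.7, 96.2 and 106 at 1 day, against 104, 72.2 and 94.8 at 12 hours (log2 fold 0.15).

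Pnoc, the precursor of the peptide nociceptin, was higher at 1 day by both of its probe sets. The first gave 600.2, 672 and 389 at 1 day, against 266, 228 and 257.5 at 12 hours. The log2 folds were 1.11 (adjusted p = 0.0846) and 0.78 (adjusted p = 0.0853), and the groups overlapped for neither.

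Nefl encodes the light neurofilament chain, an intermediate filament of axons. It gave 441.5, 427 and 195 at 1 day, against 77.9, 26.7 and 36.5 at 12 hours. All 1 day arrays were higher, with array 3 the lowest of them. The log2 fold was 2.97 (95% interval 1.73 to 4.22, adjusted p = 0.0709), and a second probe set had a fold of 1.65 without overlap (adjusted p = 0.348). Nefm, the medium chain, gave 83.4, 85.7 and 83.8 at 1 day, against 41.4, 23.5 and 58.9 at 12 hours (log2 fold 1.13, adjusted p = 0.397). These chains are also in the neuronal marker list whose sum was higher at 1 day, and the part of neurons in these values was not tested.

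Nrp2, a co-receptor for semaphorins and vascular endothelial growth factors, was evenly higher. It gave 241, 254 and 296 at 1 day, against 123, 142 and 117 at 12 hours, and controls had a median of 185. Array 3 was the highest of the 1 day arrays, and the fold was 1.05 on the log2 scale (SE 0.22, adjusted p = 0.0709).

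Of the genes that handle glutamate, the transporter and the synthesising enzyme differed in opposite directions. Slc1a2 encodes the glutamate transporter GLT-1, and its probe set with the smallest p gave 153, 139 and 79.5 at 1 day, against 45.9, 45.4 and 39.0 at 12 hours (log2 fold 1.46, adjusted p = 0.0846). The same probe set was called higher at 1 day against the controls, by 1.88 (adjusted p = 0.0151). The other Slc1a2 probe sets had folds of 0.70 and 0.57 with overlapping arrays. At 1 day against the controls they had folds of 1.21 and 0.13, neither called (adjusted p = 0.389 and 0.946). Glul, glutamine synthetase, gave 375, 313 and 289 at 1 day, against 688, 608.5 and 709.8 at 12 hours. The log2 fold was -1.04 (SE 0.24, adjusted p = 0.0846), and its other 3 probe sets had folds of -0.68, -0.87 and -0.73, none with overlap. Slc1a3, the other astrocytic glutamate transporter, could not be read as 1 level at 1 day: one probe set gave 3289 and 3316 on arrays 1 and 2 but 302 on array 3, against 655, 565 and 627 at 12 hours.

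Th, tyrosine hydroxylase, makes the catecholamine precursor L-DOPA. It gave 58.8, 154 and 146 at 1 day, against 351, 426 and 391 at 12 hours, with no overlap and a log2 fold of -1.82 (SE 0.44, adjusted p = 0.0846). The controls ranged from 135 to 526.

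Pld2, a phospholipase D, gave 306, 316 and 359 at 1 day, against 515, 570.1 and 569 at 12 hours, a log2 fold of -0.76 (adjusted p = 0.0846), and its second probe set had -0.28. The last of these genes, Grin1, encodes the subunit that every NMDA receptor needs, and its probe sets disagreed. The probe set with the smallest p gave 9.5, 16.7 and 73.5 at 1 day, against 70.1, 88.3 and 101.5 at 12 hours, so array 3 overlapped with the 12 hours arrays. Its log2 fold was -1.83 (adjusted p = 0.0846), where its other tested probe sets had 0.57 and 0.03.

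**Figure D2:**
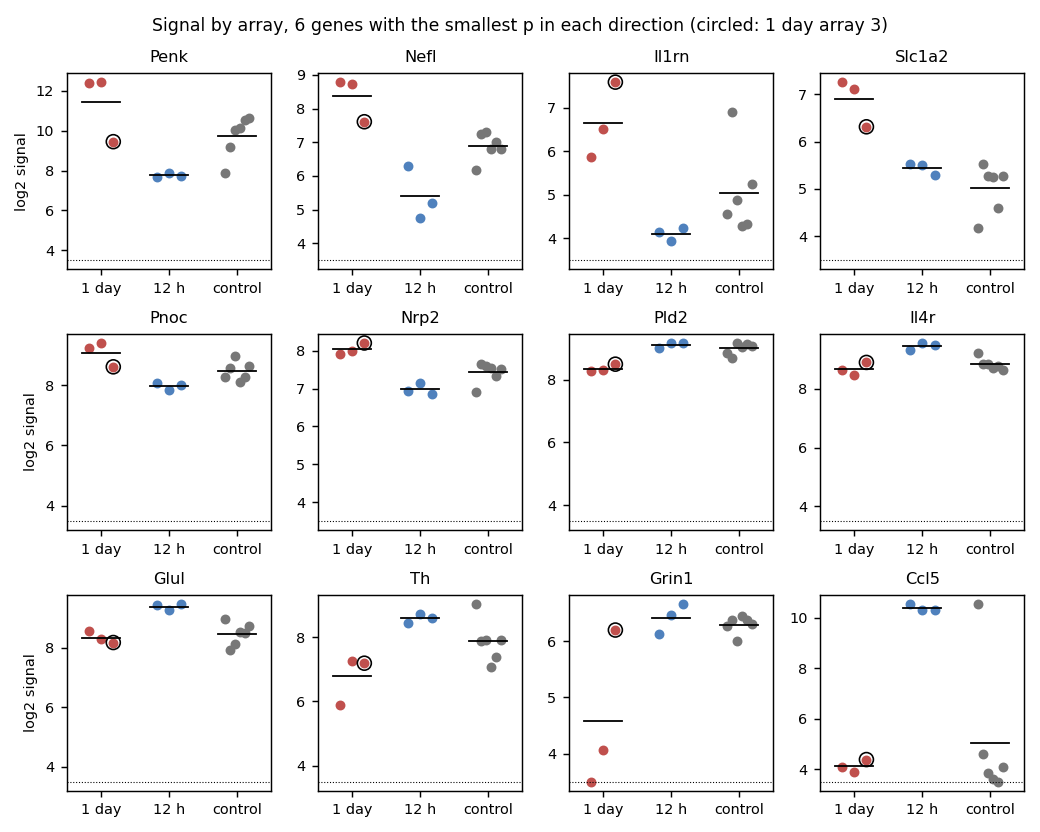
Signals of the 6 genes with the smallest p in each direction are shown by array, on the log2 scale. Within each panel the 3 arrays at 1 day stand left, the 3 at 12 hours in the middle and the 6 controls right; horizontal bars are group means, the dotted line is the floor of 11.3 and circles mark array 3 at 1 day. The 1 day and 12 hours arrays are apart in every panel but that of Grin1.

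The probe sets called at 12 hours against control were used to describe the earliest response and its values at 1 day. There were 17 of them (1.66%), 8 higher (0.779%) and 9 lower (0.876%). That number rested on the control arrays: it was 211 without control array 1, 321 without control arrays 1 and 2, and 1 without control array 3, 4 or 5. The description below is limited to the 17. Control array 1 was the nearest of the 6 controls to the 12 hours arrays for all 17 but those of Kcnma1, Drd1 and Hspd1. For Met it gave 454, against 542 to 575 at 12 hours and 159 to 267.5 on the other controls. For Ctxn1 it gave 121, against 91.4 to 120.9 at 12 hours and 294 to 593.5 on the other controls. Whether the 17 reflect the peptide or a difference between arrays was not tested. At 1 day against control 3 were called (0.292%), 1 higher (0.0974%) and 2 lower (0.195%). The comparisons share the 12 hours and the control arrays, so their values are set side by side as a description. The 17 were also chosen by their 12 hours and control values. Through that choice alone their 1 day values can lie nearer to the controls. Of all 1027 probe sets, 19.8% were higher and 13.5% lower at 1 day than at 12 hours without overlap. Of the 8 that were higher at 12 hours, Ptgs2 and Kcnma1 had values at 1 day well above the control mean, and of the other 6 all but Hspd1 had a 1 day mean closer to the control mean than to that of 12 hours.

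Ptgs2, cyclooxygenase 2, makes prostaglandins in inflammation. It gave 1653.5, 1835 and 918 at 1 day, against 2487, 2251 and 2195 at 12 hours, and the controls had a median of 324 with 1407 on control array 1. Its log2 fold was 1.88 at 1 day against control and 2.59 at 12 hours against control, and only the second was called (adjusted p = 0.0475). The direct log2 fold of 1 day minus 12 hours was -0.71 (95% interval -2.23 to 0.80). At 3 days the signals were 802, 768.5 and 219.8, and at 5 days 453, 201 and 195.

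Kcnma1 encodes the pore of the large-conductance calcium-activated potassium channel. The called probe set gave 44.7, 54.3 and 42.5 at 1 day, against 43.4, 48.8 and 50.2 at 12 hours, so the times overlapped (log2 fold -0.01, 95% interval -0.85 to 0.82). Controls 1 to 5 lay between 4.8 and 13.8 and control array 6 at 43.9. Another tested Kcnma1 probe set was lower than control at both times, with log2 folds of -1.0 at 1 day and -1.42 at 12 hours, neither called.

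Met and Jak2 are signalling kinases, the receptor for hepatocyte growth factor and a kinase of cytokine receptors. Met gave 283, 282 and 239 at 1 day, against 548, 575 and 542 at 12 hours, and its log2 fold against control was 0.11 at 1 day and 1.17 at 12 hours. The called Jak2 probe set gave 115, 87.9 and 150.4 at 1 day, against 253, 232 and 211 at 12 hours, and its fold against control was 0.28 at 1 day and 1.28 at 12 hours. The direct folds of 1 day minus 12 hours were -1.05 for Met (adjusted p = 0.154) and -1.01 for Jak2 (adjusted p = 0.171), both without overlap. Other Jak2 probe sets had direct folds of -0.63 and -0.09. Fgfr1, a fibroblast growth factor receptor, had a fold against control of 0.33 at 1 day and 0.79 at 12 hours. Hspd1, the mitochondrial chaperonin, had 0.48 at 1 day and 0.77 at 12 hours.

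The 9 probe sets that were lower at 12 hours stand for 8 genes. Slc6a15, a transporter of neutral amino acids, gave 100.3, 92.0 and 62.0 at 1 day, against 34.9, 18.7 and 9.2 at 12 hours (log2 fold 2.09, adjusted p = 0.154). Pkia, an inhibitor of protein kinase A, gave 198, 228 and 177 at 1 day, against 104, 113 and 91.4 at 12 hours (log2 fold 0.96, adjusted p = 0.143). Syn1, a protein of synaptic vesicles, gave 336, 306 and 344 at 1 day, against 202, 189.7 and 227 at 12 hours (log2 fold 0.67, adjusted p = 0.151). For all 3 the 1 day arrays lay above those of 12 hours and inside the range of the controls.

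Ctxn1, Drd1, Cd40lg and Chrnb4 had direct log2 folds of 1.14, 0.67, 0.62 and 0.55, each without overlap. Of all probe sets tested, 19.8% were likewise higher at 1 day without overlap. Ctxn1 encodes cortexin, Drd1 a dopamine receptor, Cd40lg the ligand of CD40 and Chrnb4 a nicotinic receptor subunit. Their folds against control at 1 day were -0.57, -0.21, -0.59 and -0.31, against -1.71, -0.88, -1.21 and -0.85 at 12 hours. The other Chrnb4 probe set was not lower at 12 hours. Its folds against control were 0.97 at 1 day and 0.19 at 12 hours, neither called.

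Nalcn, the sodium leak channel that sets resting excitability in neurons, was the exception on the low side. One of its probe sets gave 14.8, 11.8 and 37.8 at 1 day, against 7.6, 10.1 and 6.8 at 12 hours, all 3 of the 12 hours values under the floor, while controls ran from 41.8 to 136. It was called lower than control at both times, by a log2 fold of -2.34 at 1 day (adjusted p = 0.0151) and of -3.07 at 12 hours (adjusted p = 0.00127), where the size is a lower bound because all 3 arrays were at the floor. The second probe set gave 18.9, 62.2 and 136 at 1 day, against 50.6, 24.5 and 22 at 12 hours, so array 3 alone reached the control range of 73.8 to 263.5. At 3 days the first probe set gave 150, 130 and 79.1. The third probe set called at 1 day against control belongs to Tacr3, the neurokinin B receptor, with 18.1, 35.6 and 8.4 at 1 day, against 26.3, 41.2 and 58.3 at 12 hours and 51.0 to 142 in the controls.

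**Figure D3:**
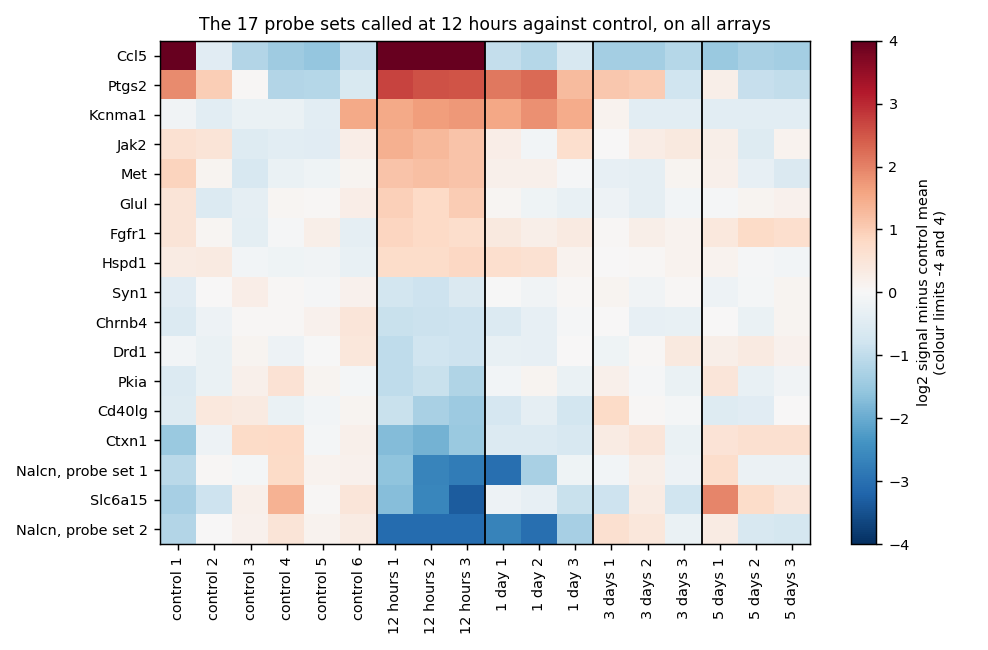
Colours give log2 signal minus the control mean, with limits of -4 and 4, for the 17 probe sets called at 12 hours against control, one per line. Columns are the 6 controls, followed by the exposed arrays in order of time, 3 for each time. Ccl5 is dark red on the 12 hours arrays and control array 1, Kcnma1 and Ptgs2 keep red on the 1 day arrays, and the last Nalcn line stays blue at 1 day.

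The transcription factor Cebpb, and complement C3 by 1 of its probe sets, were lower at 1 day on all 3 arrays. Cebpb encodes a C/EBP factor that acts on acute phase and inflammatory genes. One probe set gave 758.5, 912 and 1765 at 1 day, against 3620.0, 3985 and 3732 at 12 hours, and the other gave 274, 285.5 and 636 at 1 day, against 1140, 1128 and 1354 at 12 hours. All 1 day arrays were lower, with array 3 nearest to 12 hours, and the log2 folds were -1.82 and -1.71 (adjusted p = 0.161 and 0.156). The controls had medians of 1141 and 527 by these probe sets, and control array 1 was the highest, at 3584 and 999.5. C3, the central complement component, gave 18.4, 11.7 and 12.2 at 1 day, against 119.7, 73.2 and 96.6 at 12 hours by one probe set (log2 fold -2.78, adjusted p = 0.161). By this first probe set the controls ran from 9.4 to 171.1. Control arrays 5 and 6, at 136.6 and 171.1, were above every 12 hours array, and the 5 days arrays gave 146, 385 and 337.5. The second C3 probe set overlapped, with a fold of -0.41. With only the 6 arrays in the fit the first was called (adjusted p = 0.0186).

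RefSeq promoters on the GRCr8 build, from 250 bases before to 50 after the gene start, were searched on both strands for the C/EBP motif TTGCNNAA, the cyclic AMP response element TGACGTCA and the AP-1 motif TGANTCA. Of 75 measured genes named here, 60 had an entry, and 9, 3 and 3 of these held the motifs. Over all 33469 promoters the shares were 10.6%, 1.83% and 7.33%. The promoters of 3 genes are shown, of the complement gene, the prostaglandin enzyme and the catecholamine enzyme, because their levels at 1 day and 12 hours are described above. They were chosen after values and matches were seen. Capitals mark the motif matches. A match is a description of letters and not evidence of a bound factor.
C3, chr9:2201290-2201589, minus strand: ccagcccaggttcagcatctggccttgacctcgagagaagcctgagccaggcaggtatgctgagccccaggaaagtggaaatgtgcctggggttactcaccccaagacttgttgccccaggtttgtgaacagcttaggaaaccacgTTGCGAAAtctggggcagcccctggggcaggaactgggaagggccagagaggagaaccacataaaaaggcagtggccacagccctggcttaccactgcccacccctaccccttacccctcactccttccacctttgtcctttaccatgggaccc
Ptgs2, chr13:64713813-64714112, plus strand: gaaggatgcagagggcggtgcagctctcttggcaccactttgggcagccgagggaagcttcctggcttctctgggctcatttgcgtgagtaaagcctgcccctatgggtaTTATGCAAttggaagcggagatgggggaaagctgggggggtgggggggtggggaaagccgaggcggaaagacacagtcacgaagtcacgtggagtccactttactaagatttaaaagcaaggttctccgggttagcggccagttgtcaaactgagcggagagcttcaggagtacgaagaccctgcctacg
Th, chr1:207508169-207508468, minus strand: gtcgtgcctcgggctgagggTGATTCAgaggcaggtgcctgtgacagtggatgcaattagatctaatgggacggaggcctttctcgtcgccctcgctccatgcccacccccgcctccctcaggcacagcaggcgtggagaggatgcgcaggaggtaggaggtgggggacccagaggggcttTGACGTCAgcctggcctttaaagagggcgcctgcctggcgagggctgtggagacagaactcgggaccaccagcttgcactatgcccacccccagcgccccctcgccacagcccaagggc
The C3 match to the C/EBP motif starts 104 bases before the gene start, and the Ptgs2 match lies on the other strand, 140 bases before it. The Th promoter holds a cyclic AMP response element 69 bases before the start and an AP-1 match 230 bases before it.

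Among 11 immediate early transcription factors measured, 0 had an unadjusted p under 0.05 with higher levels at 1 day and 4 with lower levels, against 10.8% higher and 4.99% lower over all 621 genes with 1 probe set each. The 4 were Egr1, Junb, Jun and Fosl1, and the list's median log2 fold was -0.36, where that of all genes was 0.14. None passed after adjustment. Egr1, induced within minutes by growth factors and stress, gave 7591, 7506 and 13779 at 1 day, against 17860, 18224 and 16295 at 12 hours, and all 4 of its probe sets had negative folds, from -0.81 to -1.60. Junb, an AP-1 subunit, gave 1005, 1060.2 and 1559 at 1 day, against 3070, 2358 and 2815 at 12 hours (log2 fold -1.21). Array 3 was the highest 1 day array for both. Fosl1, another AP-1 subunit, gave 856, 650.5 and 40.4 at 1 day, against 1708, 1715 and 1864 at 12 hours, and here array 3 was the lowest. Fos did not follow: one probe set gave 194, 253 and 1796 at 1 day, against 620.1, 588 and 535 at 12 hours, so array 3 was above and arrays 1 and 2 below.

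Of 16 cytokine receptors and Jak-Stat genes, 0 were higher and 2 lower at that p, Il4r and Jak2, and the median log2 fold was -0.54. The shares over all 621 genes were 10.8% higher and 4.99% lower, beside which the counts here are to be read. Of 20 chemokines and cytokines, 3 were higher, Il1rn, Ccl20 and Cd40lg, and Ccl5 was lower, with a median of 0.06. Of 22 MAP, calmodulin and Src-family kinases and phosphatases, 0 were higher and 2 lower, and the median was -0.30. The calcium-dependent kinase Camk2d gave 2178, 2040.0 and 2458 at 1 day, against 3069, 3266 and 3227 at 12 hours by one probe set (log2 fold -0.52, adjusted p = 0.161). Its other probe sets had folds of -0.76, -0.49, -0.13 and 0.01, and the arrays overlapped for those at -0.13 and 0.01. Of 11 genes of the insulin-like growth factor axis, 1 was lower, the binding protein Igfbp6, which gave 946, 673 and 905 at 1 day, against 2877, 3178.5 and 3308 at 12 hours (log2 fold -1.90, adjusted p = 0.208). Its controls had a median of 466, with 3440 at the highest.

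The lists of channels, receptors and vesicle genes are read against all 621 genes, with a median of 0.14 and 10.8% higher and 4.99% lower at that p. Of 32 genes in the list of sodium, calcium and other cation channels, 7 were higher and 1 lower, with a median log2 fold of 0.33. The list also holds the chloride channel genes Clcn3, Clcn4 and Clcn5, so its counts and median are not those of cation channels alone. Clcn5 was among the 7 higher genes, with a log2 fold of 0.64. P2rx1, an ATP-gated channel, gave 34.8, 71.9 and 68.0 at 1 day, against 22.4, 18.9 and 14.8 at 12 hours (log2 fold 1.59, adjusted p = 0.165). Of 32 GABA, glycine and acetylcholine receptors, 5 were higher and 0 lower, with a median of 0.32. Chrna7, the alpha 7 nicotinic subunit, gave 159, 145 and 132 at 1 day, against 24.2, 63.1 and 12.7 at 12 hours by one probe set (log2 fold 2.43, adjusted p = 0.112). Its others had folds of 1.30 and -0.12. Of 28 vesicle exocytosis genes, 5 were higher and 1 lower, with a median of 0.11, below that of all genes, and the vesicle protein Sv2a gave 138, 168 and 212 at 1 day, against 84.5, 99.5 and 63.0 at 12 hours.

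Of 11 neurotrophins and their receptors, 3 were higher, Bdnf, Ntrk2 and Ntrk3, and 0 lower, with a median of 0.77. For these lists too the shares over all 621 genes were 10.8% higher and 4.99% lower. Bdnf, a growth factor for neurons, gave 367, 339.5 and 219 at 1 day, against 169, 165 and 198 at 12 hours by its brightest probe set (log2 fold 0.77, adjusted p = 0.289), and its 7 tested probe sets ran from -0.44 to 1.31. Of 15 matrix and adhesion genes, 3 were higher, Nrp2, Ncam1 and Agrn, with a median of 0.15. Ncam1, the neural cell adhesion molecule, gave 1678, 1614 and 1553 at 1 day, against 721.5, 608 and 727.5 at 12 hours, and with only the 6 arrays in the fit it was called (log2 fold 1.24, adjusted p = 0.0329). By this probe set the controls had a median of 2467, with 723 on control array 1. Other Ncam1 probe sets had folds of 1.38 and 0.52. Tgfb3, a growth factor of the transforming growth factor beta family, gave 2506, 2514 and 3341 at 1 day, against 1119, 1105 and 1046 at 12 hours, and was called in the fit to only the 6 arrays (log2 fold 1.34, adjusted p = 0.0434). Its controls had a median of 3452, with 751 on control array 1. Of 9 neuronal markers, 3 were higher at p under 0.05 and 0 lower, with a median of 0.67, and the part of neurons in the values of these lists was not tested. Of 10 astrocyte markers, 1 was higher and 1 lower, with a median of 0.03.

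**Figure D4:**
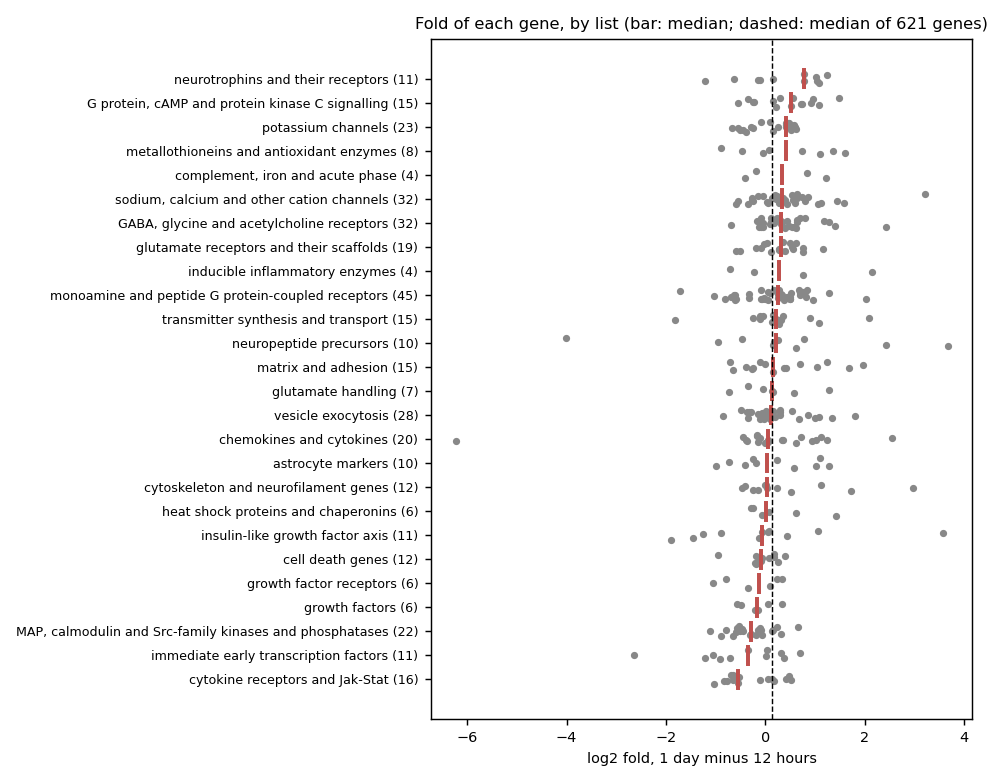
Each point is 1 gene, placed by its log2 fold of 1 day minus 12 hours, and each line is a gene list with the number of genes tested in brackets. Red bars are list medians and the dashed line is the median of all 621 genes, 0.14. Medians run from -0.54 for cytokine receptors and Jak-Stat genes to 0.77 for neurotrophins and their receptors.

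Counted array by array, the distance from 12 hours was smaller on array 3. At least 2-fold above the 12 hours mean were 143, 157 and 92 probe sets on 1 day arrays 1, 2 and 3, and at least 2-fold below it were 98, 95 and 75. On all 3 arrays together, 19 were 2-fold above and 10 were 2-fold below. The 8 named genes below on all 3 arrays were Ccl5, C3, Fosl1, Igfbp6, Th, Cebpb, the galanin receptor Galr2 and transferrin by 1 of its 3 tested probe sets. The other transferrin (Tf) probe sets went the other way without overlap, with log2 folds of 1.23 and 0.94 against -1.46 for the first. The 17 genes above included Penk, Nefl, Il1rn, Chrna7, Ncam1, Tgfb3, Nefm, the nucleotide receptor P2ry4 and, by 1 of its 5 tested probe sets, the GABA-B receptor subunit Gabbr1. That Gabbr1 probe set had a log2 fold of 1.29, and the others had 0.69, 0.49, -0.17 and -0.53, the last lower at 1 day without overlap. Galr2 gave 38.6, 36.9 and 49.9 at 1 day, against 110.0, 203 and 113 at 12 hours (log2 fold -1.72, adjusted p = 0.161). P2ry4 gave 382, 354 and 242 at 1 day, against 193, 70.3 and 96.8 at 12 hours (log2 fold 1.55, adjusted p = 0.154).

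**Figure D5:**
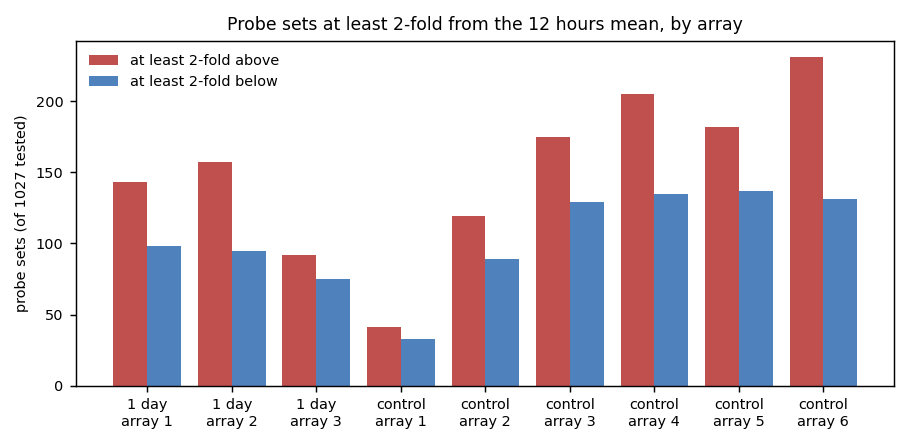
Bars count the tested probe sets, of 1027, that lay at least 2-fold above (red) or below (blue) the 12 hours mean on each array. Array 3 at 1 day has 92 and 75, fewer than arrays 1 and 2, and control array 1 has the fewest of those drawn, with 41 and 33.

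For 12 probe sets arrays 1 and 2 at 1 day were 2-fold above the 12 hours mean and array 3 was 2-fold below it, and for 6 probe sets the reverse held. The proteoglycan neurocan, Ncan, gave 3315, 3226 and 25.4 at 1 day, against 159, 169 and 171 at 12 hours. The metallothioneins Mt3 and Mt2A, which bind zinc and copper, did likewise, and Mt2A gave 9234, 9081.5 and 546 at 1 day, against 2312, 1963 and 2161 at 12 hours. Lif, a cytokine of the interleukin 6 family, gave 472, 438 and 41.4 at 1 day, against 126, 127 and 121 at 12 hours. In the other direction the growth factor Igf2 gave 623, 645 and 7281 at 1 day by one probe set, against 3282.5, 3430 and 3488 at 12 hours. The complement gene C4b gave 84.0, 82.2 and 1896 at 1 day, against 297, 241 and 133 at 12 hours, and the angiotensin receptor Agtr1a gave 3.5, 6.3 and 259.9 at 1 day, against 85.1, 72.7 and 84.8 at 12 hours. Group means at 1 day therefore describe no array of these genes.

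Other genes lay far from the 12 hours arrays on arrays 1 and 2 at 1 day and nearer to them on array 3. The peptide precursor somatostatin, Sst, gave 12.4, 25.4 and 1415 at 1 day, against 1190, 1332 and 1194 at 12 hours, and the controls had a median of 43.3 with 1425 at the highest. The insulin-like growth factor binding protein Igfbp3 gave 1545.5, 1505 and 94.6 at 1 day, against 59.1, 39.9 and 55.7 at 12 hours. The cannabinoid receptor Cnr1 gave 207, 212 and 34.1 at 1 day, against 49.6, 21.4 and 21.2 at 12 hours, and the transferrin receptor Tfrc gave 629, 597 and 197 at 1 day, against 232, 237 and 233 at 12 hours. The small heat shock protein Hspb1 gave 12008, 10942 and 3048 at 1 day, against 2673, 2938 and 2701 at 12 hours. The dendritic protein Map2 gave 314, 241 and 50.1 at 1 day, against 57.2, 43.3 and 42.6 at 12 hours by one probe set. Another Map2 probe set did not follow, with 58.3, 142 and 139.5 at 1 day, against 95.2, 64 and 67.5 at 12 hours. With array 3 left out, Cnr1 (log2 fold 2.89, adjusted p = 0.0151), Tfrc (1.39, adjusted p = 0.0151), Penk (4.66, adjusted p = 0.00416), Nefl (3.36, adjusted p = 0.0151) and Ccl5 (-6.36, adjusted p = 0.0406) were among the 24 probe sets called.

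Of the other astrocyte genes, Vim, vimentin, gave 11978, 14498 and 16604 at 1 day, against 17281, 17463 and 16029.5 at 12 hours (log2 fold -0.25, 95% interval crossing 0). The gap junction gene Gja1 gave 3116.5, 3004 and 9509 at 1 day, against 5812, 5976.5 and 6133 at 12 hours. Apoe, the lipid carrier, gave 4313.5, 3944 and 622 at 1 day, against 3150, 3050 and 2963 at 12 hours by one probe set. The calcium-binding S100b gave 529, 588 and 21.6 at 1 day, against 394, 384 and 344 at 12 hours by its brighter probe set. For these last 3 the 1 day arrays lay on both sides of the 12 hours arrays, and the direct folds of -0.42, -0.48 and -0.98 had adjusted p of 0.839, 0.829 and 0.803.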

How the data were processed

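RNA of 18 samples was measured on an array of neurobiology genes. The deposited table holds 1 linear intensity (signal) for each probe set and array. Neither labels nor file headers name the software (not given in the sources used here). Each array had nearly the same trimmed mean (502 to 503 with 2% taken from both ends), so the deposited signal was scaled before deposit, and no further scaling was done. Signals were raised to a floor at the 10th percentile, 11.3, before log2, so folds of dim genes are understated. Probe sets above the 30th percentile, 44.9, on at least 3 of 18 arrays were tested. All 5 groups entered 1 limma 3.58.1 model in R 4.3.3 (lmFit, eBayes, 13 residual degrees of freedom, two-sided, Benjamini-Hochberg at 0.05). The contrast was 1 day minus 12 hours. Each time against control came from the same fit. Folds are differences of mean log2 signal. The procedure was tested on simulated data. The number of arrays limits the precision.

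Symbols came from the platform's annotation. A single symbol was paired with 1137 of the 1263 probe sets, several with 8 and no symbol with 118, and only the first kind was named. The gene identifiers of 1132 were found in the reference gene table. Genes named were the 6 smallest p-values in each direction where none passed, those called against control at 12 hours or 1 day, the member with the smallest p of each list, and Vim, S100b, Glul, Slc1a2, Slc1a3 and Apoe. C3 and Cebpb, genes with opposite values among the 1 day arrays, and genes at least 2-fold apart on all of these arrays were named after their values were seen. Each of 30 gene lists was described by counts and a median with 1 probe set per gene, the brightest on average. The members and the lists were chosen with earlier results of these data known.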

Additional observations from a re-analysis of the deposited data

Results flagged for a closer look

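In 14 of 146 probe sets of the named genes, 1 of the 6 control arrays lay far from the others, with a gap to the nearest array, as a share of the group's range, above Dixon's critical value at the 95% level. Chance gives this in about 1 in 20 groups, and the 14 are not independent of each other. In 6 of them the array was control array 1, which carries the cerebral cortex label. Control array 1 was highest for Ccl5 at 1496.3, for Il4r at 601.7 and for Egr1 at 729.7 by 1 of its 4 probe sets. It was lowest for Nalcn at 41.8 and for Igfbp2 at 5011.0 and 6721.8 by both of its probe sets. The groups at 1 day and at 12 hours hold 3 arrays each and were not examined in this way.

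Control array 2 was highest for Il1rn at 118.3 and lowest for S100b at 19.7. Control array 3 was lowest for Slc1a2 at 36.5 and highest for Gabbr1 at 244.6. Control array 4 was lowest for P2rx1 at 19.4. Control array 5 was lowest for Bdnf at 36.9 and highest for Galr2 at 105.6. Control array 6 was highest for Kcnma1 at 43.9.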

How the results depend on the processing

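For 1 day against 12 hours, 0 probe sets were called by limma with quantile normalization, median centring, cyclic loess, floors at the 5th and 20th percentile, log2 of signal plus 16, no filter, a filter on the mean, trended and robust variances, or array 3 at 1 day alone. The count was 7 with only the 6 arrays, 3 with only the 12 exposed arrays and 15 with the 2 correlation clusters as a block. It was 24 with array 3 at 1 day set apart. Leaving out each array in turn gave 0 to 24, with 24 without 1 day replicate 3, 14 without control array 1 and 2 without 3 days array 3. Alternatives chosen after seeing the data gave 22 without control arrays 1 and 2, and 113 without these and 1 day array 3. The cause was not tested.

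Same-numbered arrays at 1 day and 12 hours deviated from their group means with correlations of 0.0422, -0.0342 and 0.0158, so no pairing by number was seen. With 3 arrays in each group and array 3 at 1 day apart from the others, these values cannot exclude a pairing. A replicate block called 3 on the 12 exposed arrays and 1 on the 6 arrays.

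For 12 hours against control the count of 17 became 8 with quantile normalization, 4 with cyclic loess, 27 without a filter and 3 with the cluster block. It was 321 without control arrays 1 and 2, 367 without these and 1 day array 3, and 1 to 211 with each array left out, the highest without control array 1. For 1 day against control the count of 3 became 1 with the floor at the 20th percentile, 30 with the cluster block and 26 with array 3 set apart. It was 59 without control arrays 1 and 2, 71 without these and 1 day array 3, and 0 to 26 with each array left out, the highest without 1 day array 3.

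Log2 folds of 1 day minus 12 hours changed sign in several named genes. With the cluster block Igfbp3 had -0.073, Map2 -0.037, Lif -0.29, Ncan -2.02, Mt3 -1.05, Agtr1a 1.56, Mt2A -0.97 and Gja1 1.11. With array 3 at 1 day compared alone Tfrc had -0.25, Sst 0.19, Slc1a3 -0.25, Lif -1.59, Ncan -2.71, Mt3 -2.24, Agtr1a 1.69, Fos 1.63, Mt2A -1.97 and Gja1 0.67. With arrays 1 and 2 compared, also without control arrays 1 and 2, Igfbp2 had -0.041, Apoe 0.43 and C4b -1.35. C4b had -0.011 with quantile normalization and -0.030 with median centring. With arrays left out in turn, Igfbp2 ran from -0.041 to 0.68, Apoe from -0.96 to 0.43, C4b from -1.35 to 0.91, Fos from -1.39 to 0.22 and a Kcnma1 probe set from -0.0034 to 1.02. None of these was called in the fit to all arrays.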

Other observations

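Other gene lists are given here at an unadjusted limma p under 0.05 for 1 day against 12 hours, and none of their members passed after adjustment. Over all 621 genes 10.8% were higher and 4.99% lower at that p, with a median log2 fold of 0.14. Of 15 genes of G protein, cyclic AMP and protein kinase C signalling, 2 were higher and 1 lower at 1 day, and the median log2 fold was 0.51. Of 23 potassium channels, 3 were higher and 1 lower, with a median of 0.42. Kcnmb1, an auxiliary subunit of the large-conductance potassium channel, gave 387, 474 and 463 at 1 day, against 373, 274 and 261 at 12 hours, and its 2 probe sets had log2 folds of 0.56 and 0.29. Of 19 glutamate receptors and their scaffolds, 2 were higher and 1 lower, with a median of 0.31. Dlg4, the postsynaptic scaffold PSD-95, gave 808.5, 734 and 643 at 1 day, against 446.5, 426 and 411 at 12 hours (log2 fold 0.76, adjusted p = 0.211). Of 45 monoamine and peptide receptors, 4 were higher and 2 lower, shares at or under those of all genes, with a median of 0.26.

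Of 12 cell death genes, 0 were higher and 0 lower, and the median log2 fold was -0.08. Bax, a promoter of apoptosis, gave 5677, 5756 and 6230.5 at 1 day, against 6560.5, 6614 and 6962 at 12 hours (log2 fold -0.19, adjusted p = 0.581). Of 6 growth factors 0 were higher and 0 lower, and the platelet-derived growth factor Pdgfa gave 5275, 5976 and 3696 at 1 day, against 7158.5, 7683 and 6902 at 12 hours (log2 fold -0.57, adjusted p = 0.426). Of 8 metallothioneins and antioxidant enzymes 1 was higher, the glutathione transferase Gsta2, with 46.9, 55.6 and 52.8 at 1 day, against 8.4, 38.5 and 4.5 at 12 hours. Ptgs1, the constitutive cyclooxygenase, gave 380.0, 652 and 120.2 at 1 day, against 90, 57.5 and 66.1 at 12 hours (log2 fold 2.15, adjusted p = 0.285), where Ptgs2 was lower on all 3 arrays at 1 day.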
